A study of Ovis aries with 20 samples.

Results

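The genes described here are those whose RNA level was higher under restricted than under normal feeding in both the jejunum and the ileum of pregnant ewes. Levels are FPKM values, fragments counted per transcript length and scaled to the mapped fragments of the library. A gene belonged to the set when its ID was listed in the tables of both segments and when 3 ratios met a limit, each taken after adding 1 to the FPKM values. The ratio of the median of the 5 restricted to the median of the 5 normally fed libraries had to be at least 1.5 in the jejunum and also in the ileum. The ratio of the ileal to the jejunal mean under normal feeding had to lie between 0.5 and 2. Of 17683 genes listed in both segments, 82 met the rule. The jejunal ratio alone was reached by 288 genes, the ileal ratio alone by 492 and both by 120, of which 38 had a segment ratio outside its limits. The 82 genes were thus chosen by the medians of both feeding contrasts and the segment means under normal feeding, and their feeding differences are given as a description.

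The animals were Hu sheep of genotype WT at 115 days of gestation. Normally fed (CON) and feed-restricted (TR) ewes gave jejunal (J) and ileal (I) samples, with 5 libraries in each of the 4 groups. The labels give neither the degree nor the length of restriction, nor the layer of the gut wall that was sampled, and they do not say whether samples with the same number came from the same ewe or that samples of a group came from separate ewes. P-values therefore measure the spread between these samples, which may be partly technical. Since the files hold no gene names, the tissue labels could not be checked against marker genes.

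The jejunum and the ileum are the middle and the last segment of the small intestine. A single layer of epithelial cells, renewed from stem cells in the crypts, takes up nutrients there and keeps gut bacteria out, while the wall beneath holds immune cells, blood vessels, nerves and muscle. The jejunum is known for the uptake of most sugars, amino acids and fats, the ileum for the uptake of bile acids and for its lymphoid tissue. The intestinal lining renews itself quickly and is costly to maintain, and it is known to shrink and to alter its metabolism when feed is short. During late pregnancy the growing fetus adds to the demand for nutrients. In RNA from bulk tissue, a lower number of cells of a type and less RNA per cell cannot be told apart, and the same holds for a rise.

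Each ID is the word gene with a number, and 0 of the 82 IDs matched an entry of the RefSeq gene table for sheep, so no gene function is given. IDs are printed for 2 genes: gene19700, which had the largest value of the smaller of its 2 feeding ratios, and gene3099, which had the highest median FPKM over the 10 restricted libraries. The other genes are named by their place in the order of the smaller ratio, from place 1 (the largest) to place 82. Libraries are called by group and number.

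The libraries had 12250 to 12965 genes at 1 FPKM or more and a summed FPKM of 427169 to 518472, and the number of reads behind them is unknown. The restricted libraries numbered 2 stood apart, and whether their labels are right was not tested, so every value given with or without them carries that doubt. Their log2(FPKM + 1) values correlated at r = 0.977 with each other over 13279 genes, against 0.918 to 0.970 for the other 9 jejunal and ileal libraries of equal number in a feeding group. With libraries other than its partner, a library numbered 2 reached at most 0.957. The rule uses medians, so these libraries could be low without removing a gene from the set. Without both of them the same rule chose 168 genes, which included 73 of the 82.

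The set spanned a wide range of abundance. Over the 10 restricted libraries the median was under 1 FPKM for 3 genes, from 1 to under 10 FPKM for 34, from 10 to under 100 FPKM for 41 and at least 100 FPKM for 4. The middle gene of the set had a median of 4.94 FPKM in J-CON and 10.6 FPKM in J-TR, and of 4.60 FPKM in I-CON and 11.5 FPKM in I-TR. Over the 13279 genes that reached 1 FPKM in 5 or more of the 20 libraries, the middle gene lay at 9.37 and 9.15 FPKM in the jejunum and at 9.96 and 9.77 FPKM in the ileum. The summed FPKM of the 82 genes made up 0.304% to 0.607% of the library total in J-CON and 0.503% to 1.08% in J-TR. In the ileum the share ran from 0.168% to 0.422% in I-CON and from 0.568% to 0.955% in I-TR. The feeding groups overlapped in this share in the jejunum and were apart in the ileum. Without gene3099, the most abundant gene of the set, the summed FPKM overlapped in the ileum too, at 653.5 to 1598 FPKM in I-CON and 1184 to 3144 FPKM in I-TR. These sums are built from genes chosen by the same contrasts.

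Most ratios lay close to the limit. The median ratio was 1.77 in the jejunum and 1.98 in the ileum, and the ileal ratio was the larger for 57 of the 82 genes. Both ratios reached 2 for 17 genes and 4 for 4 genes, while the smaller ratio was under 2 for 65. The 2 genes nearest to the limit had smaller ratios of 1.501 and 1.502, and the nearest 2 genes left out had 1.492 and 1.490. There were 29 genes of the set with a smaller ratio under 1.6, and 54 further genes with an allowed segment ratio lay from 1.4 to under 1.5.

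**Figure D1:**
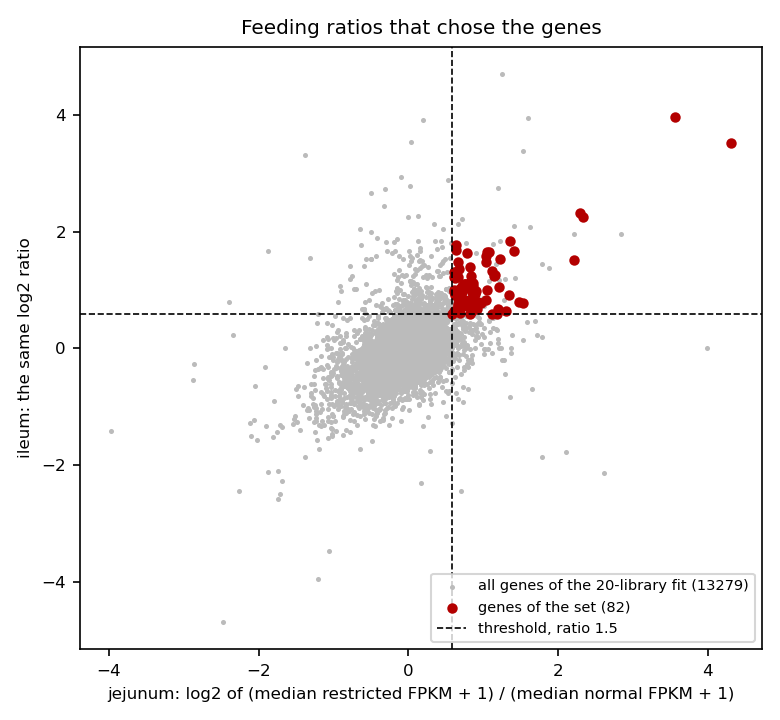
Log2 of the feeding ratio in the jejunum (x axis) and the ileum (y axis) for 13279 genes (grey) and the 82 genes of the set (red), with dashed lines at the limit of 1.5. Most red points lie near the limits, and 4 genes have both ratios at 4 or more. Grey points in the upper right field had a segment ratio outside its limits.

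The largest smaller ratio, 11.8, belonged to gene19700, a gene that was nearly silent in most libraries. Its 5 J-CON values were 0.255, 0.156, 0.0820, 0.202 and 0.0820 FPKM for libraries 1 to 5, and its J-TR values were 0.289, 12.6, 22.5, 21.7 and 0.0715 FPKM. In the ileum it stood at 0.172, 0.0901, 0.0637, 0.268 and 0.0709 FPKM in I-CON and at 0.290, 16.05, 26.8, 20.3 and 0.136 FPKM in I-TR. Restricted libraries 2, 3 and 4 were high in both segments, and restricted libraries 1 and 5 lay within or near the range of the normally fed ones in both. The groups therefore overlapped, and the high ratio stood for 3 of 5 libraries in each segment. With 3 libraries above 1 FPKM in each segment, the gene did not meet the filter, which asked for 1 FPKM in 5 or more libraries. With no filter, its log2(FPKM + 1) difference was 2.45 ± 0.899 (SE, limma, adjusted p = 0.473) in the jejunum and 2.59 ± 0.918 (SE, limma, adjusted p = 0.435) in the ileum.

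At place 2 stood a gene that was higher in each restricted library than in each normally fed library of its segment. Its J-CON values were 0, 0.764, 1.53, 6.42 and 1.42 FPKM and its J-TR values 28.4, 47.0, 76.6, 87.2 and 10.7 FPKM. In the ileum it stood at 2.76, 2.18, 2.96, 5.69 and 3.36 FPKM in I-CON and at 26.9, 44.3, 75.8, 72.7 and 7.92 FPKM in I-TR. Restricted libraries 3 and 4 were the highest and library 5 the lowest in both segments. The log2(FPKM + 1) difference was 4.08 ± 0.623 (SE, limma, adjusted p = 0.0198) in the jejunum and 3.10 ± 0.526 (SE, limma, adjusted p = 0.132) in the ileum.

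At place 4 the gene was expressed in all 20 libraries. It stood at 29.7, 19.9, 13.4, 17.7 and 9.14 FPKM in J-CON and at 93.1, 54.1, 156.6, 112.1 and 54.5 FPKM in J-TR. The ileal values were 12.7, 12.3, 9.75, 8.37 and 10.2 FPKM in I-CON and 38.3, 52.5, 122.0, 97.3 and 34.2 FPKM in I-TR. The groups did not overlap in either segment, and restricted libraries 3 and 4 were again the highest. Its differences were 2.30 ± 0.353 (SE, limma, adjusted p = 0.0200) in the jejunum and 2.42 ± 0.331 (SE, limma, adjusted p = 0.0599) in the ileum.

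The genes at places 10 and 18 had smaller differences with little spread in the jejunum. At place 10, J-CON lay at 23.4, 28.4, 20.9, 20.7 and 22.5 FPKM and J-TR at 51.2, 59.4, 67.7, 50.7 and 50.3 FPKM. In the ileum this gene had 27.7, 33.7, 30.5, 38.4 and 31.4 FPKM in I-CON and 68.9, 72.7, 145.7, 75.8 and 83.9 FPKM in I-TR. All restricted libraries were above all normally fed ones, and I-TR library 3 was far above the other 4. The log2 difference was 1.23 ± 0.118 (SE, limma, adjusted p = 0.00433) in the jejunum and 1.39 ± 0.197 (SE, limma, adjusted p = 0.0661) in the ileum. At place 18, J-CON lay at 18.5, 21.4, 21.7, 20.6 and 21.1 FPKM and J-TR at 55.3, 73.0, 61.8, 39.3 and 50.4 FPKM. Its ileal values were 24.3, 14.7, 29.2, 14.8 and 22.1 FPKM in I-CON and 44.4, 99.8, 40.5, 42.5 and 38.6 FPKM in I-TR. The groups were apart in both segments, and library 2 was the highest restricted library in both. The differences were 1.37 ± 0.146 (SE, limma, adjusted p = 0.00606) and 1.24 ± 0.282 (SE, limma, adjusted p = 0.210).

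The most abundant gene of the set, gene3099, varied widely within the normally fed groups. It had 744.9, 83.1, 1019, 701.9 and 395.0 FPKM in J-CON and 1466, 1226, 1645, 653.7 and 1276 FPKM in J-TR. In I-CON it stood at 901.1, 537.3, 647.4, 98.0 and 111.8 FPKM and in I-TR at 1127, 1933, 968.2, 1053 and 1395 FPKM. All 5 I-TR libraries were above all 5 I-CON libraries, while in the jejunum restricted library 4 lay below normally fed libraries 1, 3 and 4. The log2 difference was 1.42 ± 0.600 (SE, limma, adjusted p = 0.556) in the jejunum and 1.96 ± 0.611 (SE, limma, adjusted p = 0.318) in the ileum.

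**Figure D2:**
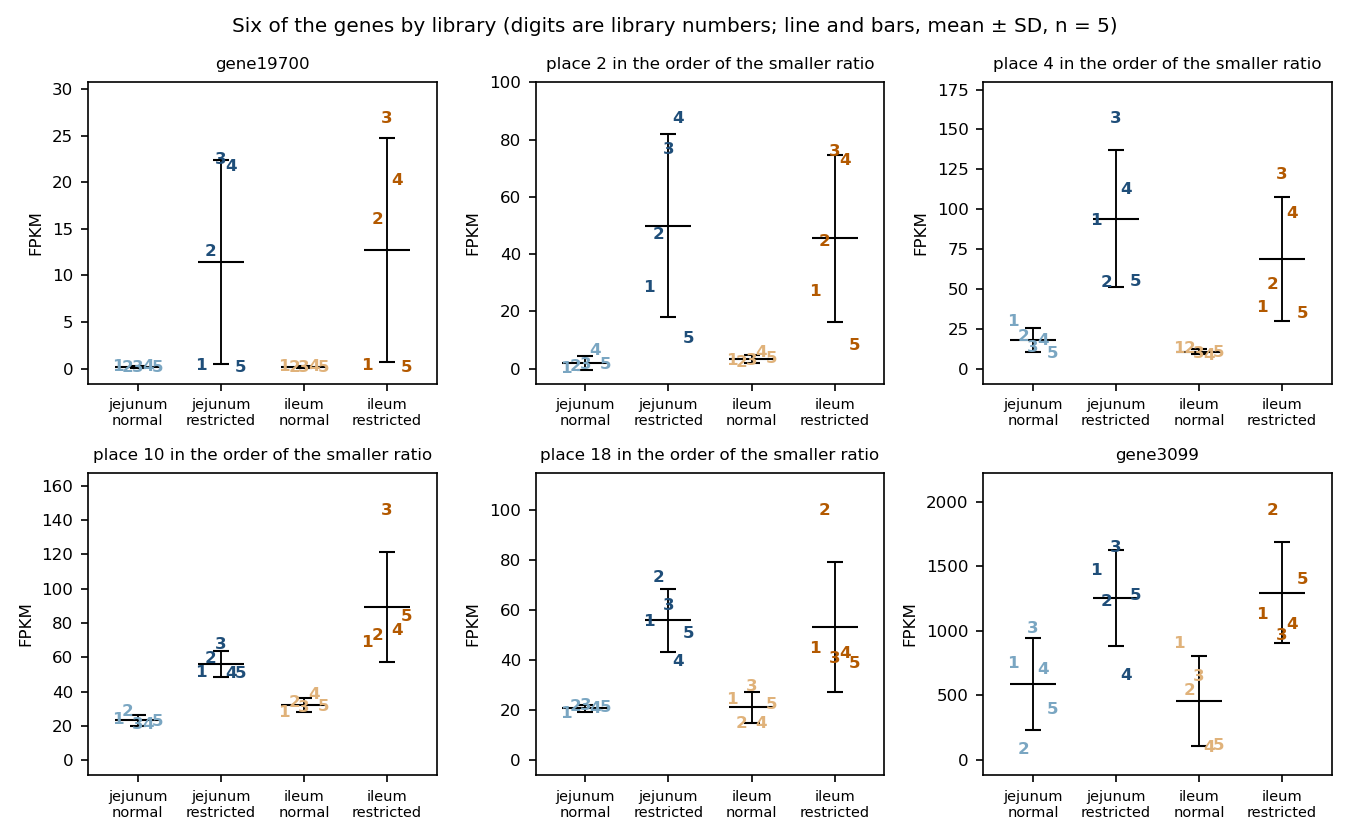
FPKM of 6 genes of the set in each library, with digits for the library number and bars for the mean ± SD of 5 libraries. In gene19700 restricted libraries 1 and 5 stay at the normally fed level in both segments, whereas the genes at places 2, 4, 10 and 18 are above it in all 5.

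Across the set the groups were seldom apart. All 5 restricted libraries lay above all 5 normally fed ones for 13 genes in the jejunum and for 15 in the ileum. The filter was met by all 13 of these in the jejunum and by 14 of the 15 in the ileum. Of all genes that met the filter, 0.727% of 12652 were apart in this direction in the jejunum and 0.499% of 12830 in the ileum. Since the rule used these contrasts, nothing is read from the difference. The genes apart in both segments were 5, at places 2, 4, 10, 18 and 34. At least 4 restricted libraries exceeded all normally fed ones in both segments for 19 genes and at least 3 for 40. For 21 genes at most 2 did so in both segments, and for the genes at places 67 and 72 none did in either. No share over all genes is given for these counts over both segments, so nothing is read from them.

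The limma test counted few of these genes. Of the 82 genes, 72 met the filter in the jejunum, 74 in the ileum, 70 in both and 6 in neither. In the jejunum 7 of the 72 passed at an adjusted p under 0.05 as higher under restriction, beside 0.0869% of all genes tested (11 of 12652). In the ileum 1 of the 74 passed, beside 0.00779% (1 of 12830). At an unadjusted p under 0.05, 34 were higher in the jejunum, beside 2.73% of all genes, and 31 in the ileum, beside 2.19%. The median log2 difference of the genes tested was 0.69 in the jejunum, against -0.01 over all genes, and 0.68 in the ileum, against -0.03. The rule used both contrasts, so these counts describe how large the spread was beside the ratios.

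Jejunal calls were made for places 2, 4, 10, 11, 18, 27 and 34. At place 11 the levels were 6.92 to 11.3 FPKM (median 8.55) in J-CON and 15.7 to 27.1 FPKM (median 19.8) in J-TR, and at place 34 they were 3.04 to 5.64 FPKM (median 5.01) and 8.64 to 10.9 FPKM (median 10.5). The least abundant was the gene at place 27 of these 7, with 0.863 to 1.02 FPKM (median 0.903) in J-CON and 1.76 to 2.46 FPKM (median 2.38) in J-TR. Only J-CON libraries 1 and 2 reached 1 FPKM, while all J-TR libraries did, so J-CON alone would not have met the filter. In the ileum the restricted values of this gene were higher, at 2.59 to 10.4 FPKM (median 4.59) in I-TR. I-CON lay at 1.02 to 2.89 FPKM (median 1.13), and the groups overlapped. At place 2, J-CON libraries 1 and 2 were under 1 FPKM, so the same limit holds for its jejunal call. With no filter its adjusted p was 0.0316 (limma). The gene that passed in the ileum was that at place 9. It stood at 0.893, 0.695, 0.915, 0.938 and 0.480 FPKM in I-CON and at 3.51, 3.93, 2.12, 3.65 and 2.77 FPKM in I-TR, a log2 difference of 1.22 ± 0.150 (SE, limma, adjusted p = 0.0446). All I-CON values were under 1 FPKM and all I-TR values above it, so the gene met the filter only through the group where it was high. With no filter the adjusted p was 0.0644 (limma). For the jejunum, 4 of 5 restricted libraries were above all normally fed ones and library 1, at 0.711 FPKM, was below all of them. Of the 8 genes that passed in a segment, 7 had a spread within groups below the middle of the set. The test weighs a difference against this spread, so that count is partly fixed by the test.

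Several calls depended on which libraries were fitted. In the jejunum the count of 7 was 2, 3, 3 or 2 without J-CON library 2, 3, 4 or 5. Over all genes the calls as higher were then 2 of 12542, 4 of 12534, 3 of 12521 and 2 of 12549. Without J-TR library 3 the count was 2, beside 2 of 12569 genes. Without J-TR library 1 it was 11, beside 14 of 12552 genes. The genes at places 10 and 18 passed in 17 of 18 alternatives, the exception being a block for the library number, and in all 10 fits without 1 library. The genes at places 2, 4, 11, 27 and 34 each lost the call in some fits without 1 library. Over all alternatives the log2 difference ran from 3.77 to 5.21 at place 2 and from 2.09 to 2.50 at place 4. It ran from 1.01 to 1.20 at place 11, 0.67 to 1.12 at place 27 and 0.83 to 1.08 at place 34. Outside the block fit the adjusted p-values reached 0.0723, 0.0782, 0.1005, 0.285 and 0.0700 in this order (limma). In the ileum the count was 3 without I-TR library 3, beside 4 of 12735 genes, and 2 without I-TR library 5, beside 2 of 12752. It was 0 without any other library. The gene at place 9 passed in 2 of the 11 alternatives in which it met the filter, with log2 differences of 1.16 to 1.90. A single fit of all 20 libraries counted 11 genes of the set in the ileum, beside 17 of 13279 genes, and 6 in the jejunum, beside 10. Of the set, 4 were counted in both.

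The restricted libraries did not move together over the set. In 29 of the 82 genes (35.4%) the restricted library numbered 2 was alone the lowest of the 5 in the jejunum and also in the ileum. Over 13279 genes the share was 15.9%. Number 2 was the highest in both segments for 6 genes (7.32%), beside 20.5% of all genes. Number 3 was the highest in both for 15 genes (18.3%, beside 6.76%) and number 4 for 17 genes (20.7%, beside 6.57%). Number 1 was the highest in both for 0 genes (beside 1.99%) and number 5 for 2 (2.44%, beside 6.42%). The lowest in both was number 5 for 8 genes (9.76%, beside 3.04%). A gene could enter the set with 2 low restricted libraries in a segment but not with 3, so these counts are partly fixed by the choice of genes and were not tested.

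**Figure D3:**
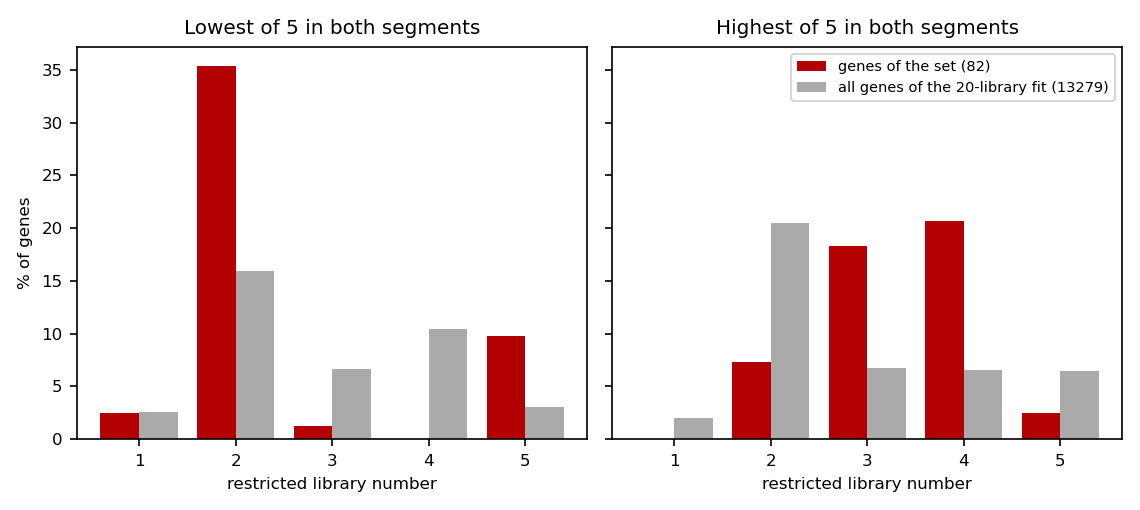
Percent of genes for which a restricted library number was the lowest (left) or the highest (right) of the 5 restricted libraries in both segments, for the 82 genes of the set (red) and for 13279 genes (grey). Number 2 was the lowest for 35.4% of the set, and numbers 3 and 4 were the highest for 18.3% and 20.7%.

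The 29 genes that were lowest in number 2 included many abundant ones, and 20 of them had a median of at least 10 FPKM over the restricted libraries. For 19 of the 29, library 2 lay below the median of normal feeding in both segments, and for 9 it lay below all normally fed libraries in both. A gene taken for a low restricted library is bound to overlap more often, so no count of calls is compared between these classes. The most abundant of them, at place 41, had 252.1, 148.8, 89.6, 98.1 and 75.9 FPKM in J-CON and 165.6, 32.6, 280.5, 392.5 and 102.6 FPKM in J-TR. Its ileal values were 74.9, 142.1, 52.8, 199.4 and 23.8 FPKM in I-CON and 162.5, 31.1, 226.0, 291.5 and 50.1 FPKM in I-TR. Restricted libraries 3 and 4 were high and library 2 was low in both segments, and the feeding groups overlapped throughout. Its log2 difference was 0.26 ± 0.609 in the jejunum (SE, limma, adjusted p = 0.990) and 0.52 ± 0.715 (SE, limma, adjusted p = 0.933) in the ileum.

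The same 29 genes also varied in step among the normally fed libraries. The rule used the medians of these libraries, which favours genes with 3 low and up to 2 high libraries, so the pattern is a description. Their median deviation on the log2(FPKM + 1) scale was 0.79 in J-CON library 1, where 26 of the 29 were above the group mean, and 0.83 in I-CON library 4, where all 29 were. In J-CON library 2 it was 0.20 (22 of 29 above) and in I-CON library 2 it was 0.44 (24 of 29). It was -0.35, -0.31 and -0.36 in J-CON libraries 3, 4 and 5, -0.19 in I-CON library 1 (7 of 29 above), -0.43 in I-CON library 3 and -0.69 in I-CON library 5. Numbers 1 and 4 thus went opposite ways in the normally fed jejunum and ileum. Over all 13279 genes the median deviation lay between -0.09 and 0.05 in these libraries. The level of these genes therefore differed between normally fed libraries as well as between restricted ones. Which cells or processes it follows was not tested, since no gene could be named.

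For the 47 genes of neither kind, the median deviation of restricted library 2 was -0.01 in the jejunum and -0.04 in the ileum. The 6 genes that were highest in number 2 ran the opposite way to the 29 in several libraries. Their median deviation was -0.60 in J-CON library 1, -0.62 in I-CON library 2 and -0.45 in I-CON library 4, and it was -0.92 in J-TR library 4 and -0.97 in I-TR library 3. Both classes were chosen by restricted library 2, so the deviations of the other restricted libraries from the group mean are partly fixed by that choice. The most abundant of the 6 is the gene at place 18.

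**Figure D4:**
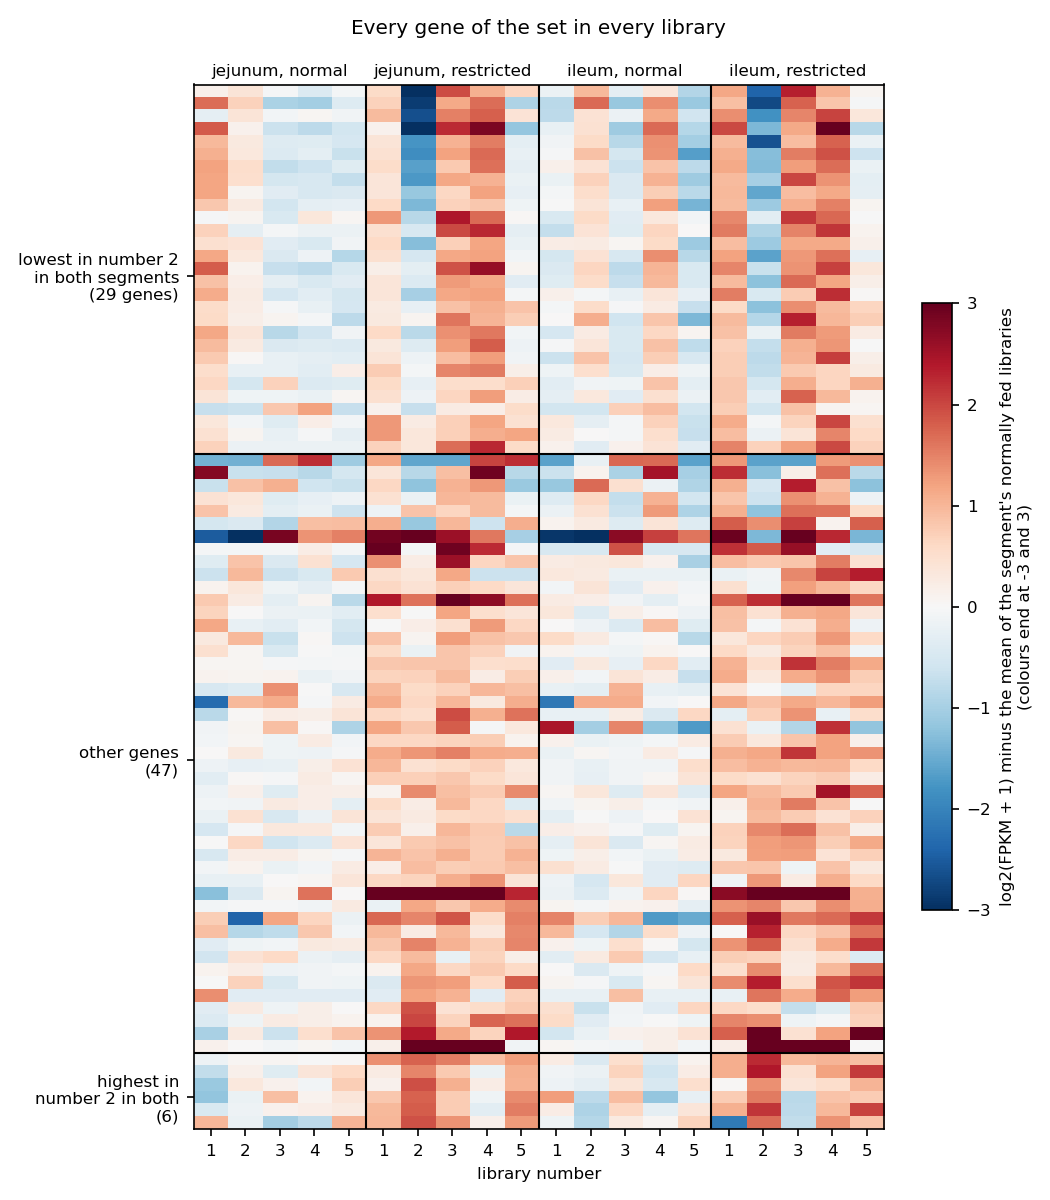
Each of the 82 genes (rows) in each of the 20 libraries (columns), as log2(FPKM + 1) minus the mean of the normally fed libraries of the segment, with red for higher and blue for lower. The upper block holds the 29 genes that were lowest in restricted library 2 in both segments, which also vary in step among the normally fed libraries; the lower block holds the 6 that were highest there.

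Several genes of the set were nearly silent in some libraries and well expressed in others. A value under 0.5 FPKM and a value of at least 5 FPKM occurred in both segments for 7 genes, 8.54% of the set, beside 119 of the 17683 genes (0.673%). The 17683 include the genes too low for the filter. The rule asks for restricted medians above normally fed ones, so the share in the set is partly fixed by the choice of genes and was not tested. For these genes it was counted how many library numbers were on the same side of 1 FPKM in both segments. Besides gene19700, with all 10 numbers, this held for 10 of 10 numbers at places 13 and 59, for 9 at place 5 and for 7 at places 3, 8 and 28. At place 13 only restricted library 2 was under 1 FPKM. Its normally fed libraries 1 (21.8 FPKM in the jejunum, 2.94 FPKM in the ileum) and 4 (2.51 and 17.1 FPKM) went opposite ways. At place 59 restricted library 2 had 74.1 and 3.63 FPKM. Unequal numbers were not counted, so agreement of equal numbers was not tested here.

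In the gene at place 59 the values were 0.640, 0, 65.0, 22.7 and 25.2 FPKM in J-CON and 68.0, 74.1, 53.4, 26.7 and 3.62 FPKM in J-TR. In I-CON it had 0.567, 0.0763, 76.8, 47.8 and 34.9 FPKM and in I-TR 90.2, 3.63, 112.2, 56.1 and 3.57 FPKM. Normally fed libraries 1 and 2 were nearly silent in both segments and no restricted library was. In the gene at place 5 they were 0.103, 0.0722, 8.43, 12.6 and 0.405 FPKM in J-CON and 5.53, 0, 0, 10.9 and 12.7 FPKM in J-TR. In I-CON it had 0, 1.58, 9.03, 8.86 and 0 FPKM and in I-TR 6.45, 0, 0, 6.40 and 6.86 FPKM. Restricted libraries 2 and 3 were listed at 0 in both segments, and normally fed libraries 3 and 4 were high in both. For both genes the feeding groups overlapped in both segments, and the adjusted p was 0.804 or more in each (limma).

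Deviations from the group mean were then compared between the jejunal and the ileal library of equal number. Over the 10 numbers, the correlation between segments had a median of 0.557 over the 81 genes of the set in the 20-library fit and of 0.412 over all 13279 genes. It exceeded 0.9 for 6 of the 81 genes, or 7.41%, and for 1.05% of all genes. Across the 81 genes, jejunal and ileal libraries of equal number correlated at 0.456 to 0.836 under restriction and libraries of unequal number at -0.637 to 0.474. Each restricted jejunal library was closest to the ileal library of its own number. Under normal feeding equal numbers ran from -0.094 to 0.772 and unequal ones from -0.661 to 0.531, and 3 of 5 jejunal libraries were closest to their own number. These correlations are across genes, which are not independent, and the libraries of a pair may share an ewe. If they do, the ileal values of the set do not repeat the jejunal ones independently.

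The spread within groups was wide. The median SD of log2(FPKM + 1) within groups was 0.706 over the 81 genes, with quartiles of 0.495 and 0.978, and 0.274 over all 13279 genes. A ratio of medians of 5 libraries reaches the limit more easily where the spread is wide. The difference from all genes is therefore partly fixed by the choice of genes. Exact zeros made up 60 of the 1640 values of the set and fell in 12 genes.

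The ileum was compared with the jejunum under restricted feeding. The rule set no limit on this contrast, but it used the restricted medians and held the segment ratio under normal feeding between 0.5 and 2, so the size and balance of the differences are partly fixed by the choice of genes. Of the 80 genes of the set that met the filter, 40 leaned to the ileum and 40 to the jejunum, with a median log2 difference of 0.00 against 0.05 over all genes. All 80 differences were smaller than 1 in size, from -0.91 to 0.96, with a median SE of 0.423. None of the 80 passed (limma, smallest adjusted p = 0.201), beside 0.0% of all 12640 genes, and 0 passed with the library number as a block. At an unadjusted p under 0.05, 4 genes were higher in the ileum, beside 8.12% of all genes, and 4 were higher in the jejunum, beside 2.94%. With the number as a block, the pairing found under restriction, these counts were 11, beside 14.3%, and 12, beside 6.34%, and the smallest adjusted p was 0.0941 (limma). The SE leaves room for differences between segments of a size that this test would not count.

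The largest ileal excess was that of the gene at place 27. It stood at 2.38, 2.44, 2.46, 1.76 and 1.81 FPKM in J-TR and at 4.21, 2.59, 10.4, 6.38 and 4.59 FPKM in I-TR. The groups did not overlap, and library 2 lay closest to the jejunal values. The log2 difference was 0.96 ± 0.265 (SE, limma, adjusted p = 0.221). The smallest adjusted p was at place 67, a low gene with 1.85, 1.154, 1.34, 1.89 and 1.73 FPKM in J-TR and 0.622, 0.214, 0, 0.904 and 0.901 FPKM in I-TR. The segments were apart, and the log2 difference was -0.80 ± 0.200 (SE, limma, adjusted p = 0.201). All J-TR values were above 1 FPKM and all I-TR values under it. This gene thus met the filter only through the group where it was high, and nothing is read from its separation. The most negative difference was -0.91 ± 0.359 at place 44 (SE, limma, adjusted p = 0.378), where the segments overlapped. At place 79 the levels were 11.2, 6.21, 15.2, 11.4 and 10.9 FPKM in J-TR and 3.79, 4.85, 5.35, 8.31 and 4.71 FPKM in I-TR. Here jejunal library 2 lay below ileal library 4, and the log2 difference was -0.90 ± 0.230 (SE, limma, adjusted p = 0.205).

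Without both restricted libraries numbered 2, the genes at places 27 and 79 passed, 2 of 77, beside 1.96% of 12433 genes. The log2 difference was then 1.19 ± 0.243 at place 27 (SE, limma, adjusted p = 0.0481) and -1.05 ± 0.208 at place 79 (SE, limma, adjusted p = 0.0464). With a block for the number added to this fit, 10 of the 77 passed, beside 6.56% of all genes, 6 of them with more in the ileum and 4 with more in the jejunum. The largest difference in that fit was at place 26, where 4 J-TR libraries held 4.95 ± 2.19 FPKM and 4 I-TR libraries 13.5 ± 4.72 FPKM (SD, n = 4), a log2 difference of 1.29 ± 0.132 (SE, limma, adjusted p = 0.0114).

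**Figure D5:**
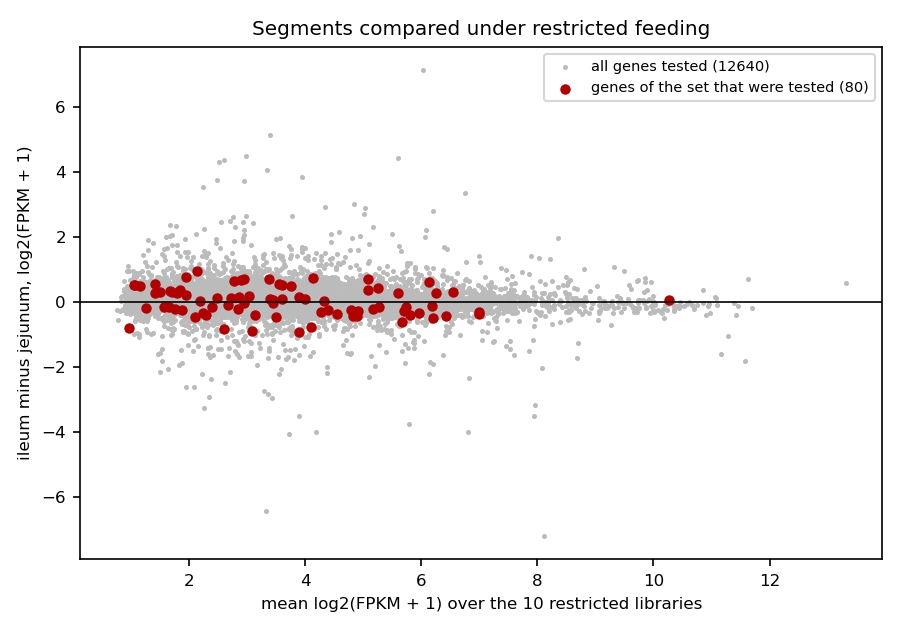
Ileum minus jejunum under restricted feeding on the log2(FPKM + 1) scale (y axis) against the mean log2(FPKM + 1) of the 10 restricted libraries (x axis), for 12640 genes (grey) and the 80 tested genes of the set (red). The red points lie between -0.91 and 0.96, with 40 above and 40 below 0.

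Whether the feeding difference itself differed between segments was read from the interaction, which is built from values the rule used and is given as a description. Of 81 genes tested, 0 passed (limma, smallest adjusted p over all genes = 1.00), beside 0.0% of 13279 genes. At an unadjusted p under 0.05 there were 0 of the 81, beside 1.97% of all genes. With the number within each feeding group as a block, 1 gene had a larger and 3 had a smaller difference in the ileum at this limit (limma). Over all 13279 genes these counts were 199 and 347. Under normal feeding this pairing was not found for every number. The ileal feeding difference was the larger for 54 of the 81, with a median of 0.13 (log2) between the ileal and the jejunal difference. This median was -0.06 without J-TR library 2, -0.01 without I-TR library 3 and -0.01 without I-TR library 4.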

How the data were processed

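RNA sequencing libraries were made from total RNA taken up in Trizol, and the labels' protocols name NEBNext Ultra for the library step. Gene-level FPKM values, 1 file per library, are what the authors deposited. Read alignment, counting, build and gene models: not given in the sources used here. FPKM divides by transcript length and library size, so a few very abundant genes can shift the values of the rest.

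The jejunal files list 18058 genes, and 18051 are listed for the ileum. Of 18426 IDs, 0 matched the RefSeq table (ARS-UI_Ramb_v3.0), so no sequence or name was assigned. The members, lists and alternatives were chosen with earlier results of these data known.

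Fits used limma 3.58.1 with a mean-variance trend (R 4.3.3) on log2(FPKM + 1), for genes that reached 1 FPKM in 5 or more libraries of the fit. Adjusted p-values (Benjamini-Hochberg) cover every gene tested in a fit, at a threshold of 0.05. Log2 differences are on this scale, on which the added 1 shrinks differences between low values. Each fit was tested on simulated data. Tests were two-sided. Feeding fits used the 10 libraries of a segment, the segment fit the 10 restricted libraries and the interaction all 20. Tables were joined with Python 3.11.15.

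The 2 printed IDs follow a rule set with the design. Genes described by place are those that passed in a segment, plus examples chosen after their values were seen. Equal numbers were checked as pairs by correlating deviations from group means over 13279 genes. Under restriction all 5 exceeded the bound of 0.1, from 0.168 to 0.637, so these numbers count as pairs from the data, not from the labels. Under normal feeding they ran from 0.0219 to 0.500.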

Additional observations from a re-analysis of the deposited data

Results flagged for a closer look

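Among the genes whose library values are printed, 4 values stood far from the other 4 of their group, by a gap whose share of the group's range exceeded Dixon's 95% critical value. Chance flags about 1 in 20 groups. At place 2, J-CON library 4 lay at 6.42 FPKM and the next library at 1.53 FPKM. At place 9, J-CON library 5 lay at 1.38 FPKM and the next at 0.925 FPKM. At place 10, I-TR library 3 lay at 145.7 FPKM and the next at 83.9 FPKM. At place 18, I-TR library 2 lay at 99.8 FPKM and the next at 44.4 FPKM.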

How the results depend on the processing

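The make-up of the set depended on the rule's details. It held 82 genes as defined, 178 with 0.1 added in place of 1 (76 shared), 17 at a ratio of 2, 168 without both restricted libraries numbered 2 (73 shared), and 59 to 140 without 1 library. Group means in place of medians gave 80 genes, of which 40 were shared, and equal totals gave 75 (73 shared).

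Of the set's genes, 7 passed in the jejunum, beside 11 of 12652 genes, and 0 with a replicate block, beside 0. Without 1 library 2 to 11 passed, beside 2 to 14 of all genes. In the ileum 1 passed, and 0 did with a pseudocount of 0.1, no filter, a filter of 5 FPKM, quantile normalization, a replicate block or without both libraries numbered 2. The gene that passed, at place 9, did not meet the filter of 5 FPKM or that of any fit without an I-TR library, so there its call was not tested. Fitting the 20 libraries jointly gave 11 in the ileum, beside 17 of 13279 genes, against 0 to 3 without 1 library, beside 0 to 4 of all genes. Equal numbers across feeding groups did not count as pairs, at -0.298 to 0.198 in the jejunum and -0.572 to 0.405 in the ileum, with 1 and 2 of 5 restricted libraries closest to their own number. Between segments under restriction 0 passed, beside 0.0% of all genes. When the 20 libraries were fitted jointly 1 passed, beside 214 genes higher and 93 lower in the ileum of 13279. Without both libraries numbered 2 the count was 2, beside 1.96%. With the replicate block added (chosen after seeing the data) it was 10, beside 6.56%. Without 1 library it was 0 to 1. The 1 came without J-TR library 2, beside 80 genes higher and 49 lower of 12545. Without I-TR library 2 it was 0, beside 76 and 20 of 12530. The interaction count was 0 in each alternative.

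Of 440 member values under alternatives, 45 lost and 11 gained a call and 6 changed sign, none of them called: at place 5 in the ileum (-0.247 to 0.590) and at place 41 in the jejunum (-0.101 to 0.787), each without 1 library. Depth is unknown, so no detection limit is given.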
